A study of Mus musculus with 12 samples.

Results

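The ephrins, their Eph receptors, the netrins, the slits and the receptors of both are secreted or cell-surface proteins that steer growing axons. All 41 rows of the count table whose gene symbol names one of these genes were taken, of 23253 genes in the table, whatever their level. They comprise 5 ephrin-A, 3 ephrin-B, 9 EphA, 5 EphB, 3 Slit, 4 Robo, 4 netrin, 2 netrin-G and 4 Unc5 genes, with Dcc and Neo1 as the remaining 2. All 41 passed the filter on low counts and were tested among 17909 genes. RNA was sequenced as paired 69 bp reads from cortical neurons of C57BL/6 mice, labelled as sorted by flow cytometry, in 12 libraries, 3 for each of 4 groups. They were adult control (libraries 1 to 3), adult stroke (4 to 6), adult stroke with GDF10 siRNA (1 to 3), and a control labelled P4 (4 to 6). The count column taken for P4 library 4 is headed P3, and it was matched to the P4 sample by its number. For the focal stroke, 2 mm across, mice received rose bengal, a dye that clots vessels when lit, and cold light on the brain for 15 min. GDF10, a secreted TGF-beta family protein, is studied in the series for its part in the sprouting of axons after stroke. The labels do not spell out P4, and they give neither the time after stroke, nor how the siRNA was delivered, nor whether each library of a group came from an animal of its own. The p-values below therefore measure the spread between these libraries, which may be technical.

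Ephrin-A proteins are tethered to the membrane by a lipid anchor and ephrin-B proteins span it, and both are bound by Eph receptor tyrosine kinases on a touching cell, with signals passing into both cells. Slits are secreted proteins that repel axons through Robo receptors. Netrin-1 attracts axons through Dcc and its relative Neo1 (neogenin) and repels them where Unc5 receptors take part, whereas netrin-Gs are lipid-anchored relatives that bind synaptic adhesion proteins. In the developing cortex these genes set neuron migration, layer and area boundaries and axon tracts, and several stay active at adult synapses.

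In outline, 13 of the 41 genes differed between P4 and adult control, where 16.7% of all genes did, and 9 of the 13 were receptors that were higher in P4. None of the 41 passed the test between stroke and adult control (0.687% of all genes), between siRNA-labelled stroke and stroke (0.00558%), or between siRNA-labelled stroke and adult control (0.123%). Levels are given as CPM, counts scaled by library size and TMM factors, with means ± SD over the 3 libraries of a group. Calls are those of edgeR's quasi-likelihood test, fitted to all 12 libraries, at an adjusted p under 0.05 (Benjamini-Hochberg, over every gene tested). Fold changes are on the log2 scale, and SE is an approximate standard error, obtained by dividing the absolute log2 fold change by the root of its F statistic. A value printed as adjusted p comes from this test unless another is named.

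**Figure D1:**
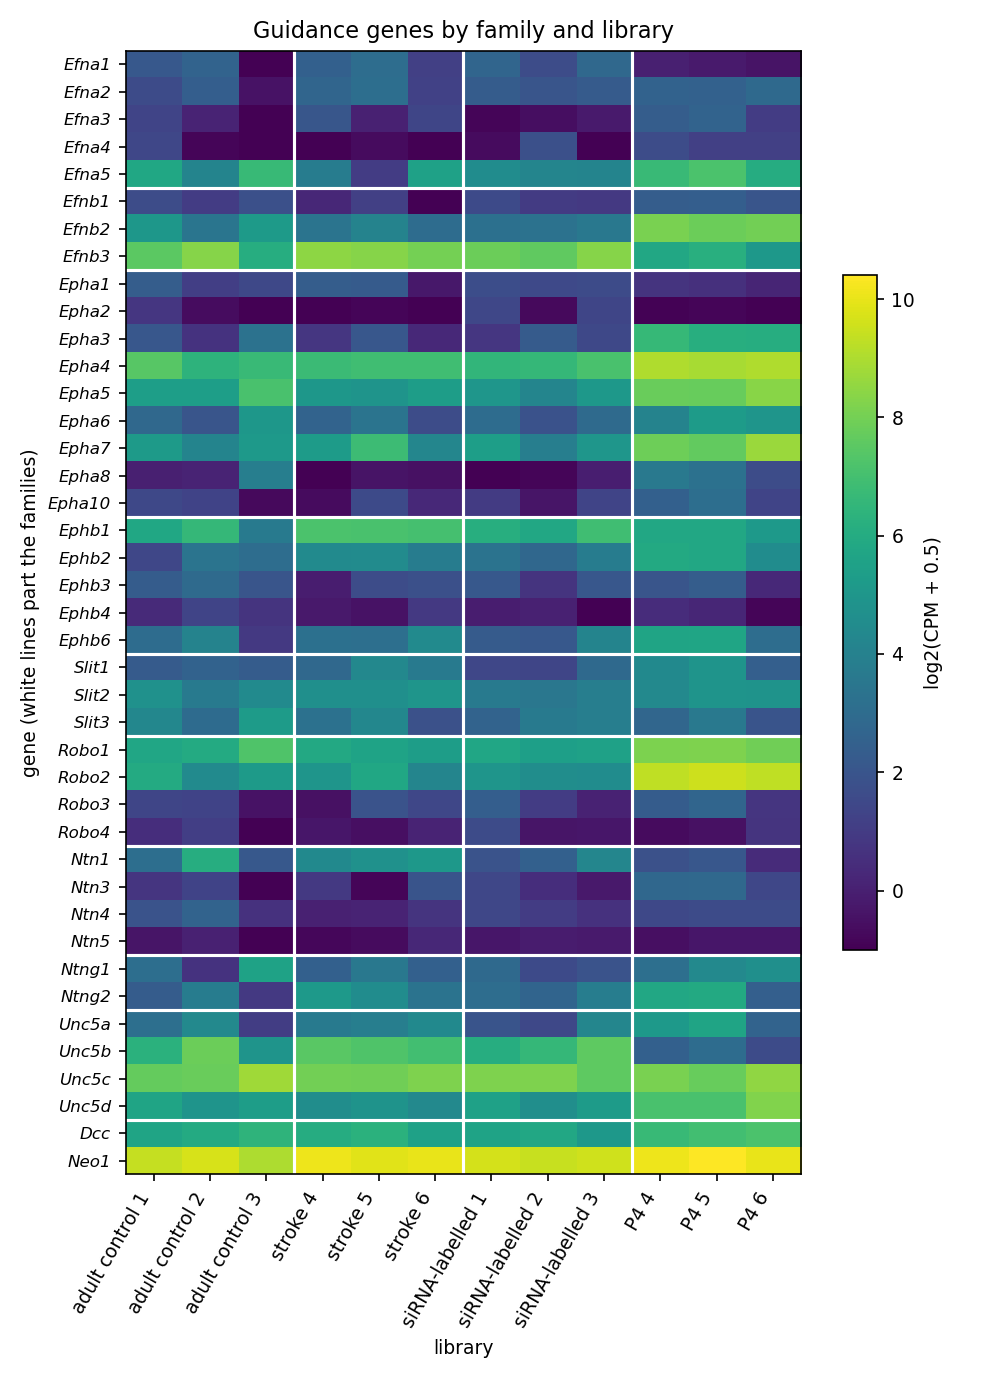
Levels of the 41 genes (rows, by family) in the 12 libraries (columns, by group), as log2(CPM + 0.5) on a colour scale. The P4 columns stand out for Robo2, Epha3, Epha7 and Efnb2, which are higher in all 3 P4 libraries than in all 9 adult ones, and for Unc5b, which is lower.

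Total counts ran from 10517638 to 48633350 per library. Gdf10, the gene named by the siRNA, was counted 15, 21 and 0 times in the adult controls, 0, 5 and 0 times after stroke, 8, 7 and 1 times with the siRNA label and 189, 241 and 33 times in P4. Its level was no lower with the siRNA label than after stroke alone (log2 fold change 2.34, SE 1.68, adjusted p = 0.782), and the group is called siRNA-labelled for that reason. Markers of other cells were present: the 10 oligodendrocyte markers took 3.67 to 9.16% of counts in adult control, 5.01 to 6.25% after stroke, 6.34 to 10.28% with the siRNA label and 0.0104 to 0.0276% in P4. The 10 pan-neuronal markers took 0.205 to 0.631%, 0.161 to 0.197%, 0.162 to 0.265% and 0.595 to 0.924% in the same order. The 8 oligodendrocyte precursor markers took 0.0788 to 0.368%, 0.334 to 0.458%, 0.155 to 0.275% and 0.0118 to 0.0214%, and the 8 astrocyte markers 0.401 to 0.607%, 0.055 to 0.0842%, 0.0762 to 0.143% and 0.032 to 0.0563%. No marker of these 4 lists was at 0 in a whole group. Most astrocyte marker counts were those of Slc1a2, at 285602 in adult control and 43201 in stroke. In stroke against adult control, 4 of the 8 astrocyte markers were called lower and none higher. The list did not move as one, since counts of Gfap went from 219 to 2005 and those of Aqp4 from 4318 to 6626. The 9 microglia markers took 0.0633 to 0.106%, 0.0345 to 0.115%, 0.176 to 0.348% and 0.00207 to 0.00356%, and none was at 0 in a whole group. The 8 excitatory neuron markers took 0.06 to 0.127%, 0.0243 to 0.0337%, 0.0225 to 0.0422% and 0.281 to 0.351%. Of these 8, 5 were called higher and 1 lower in P4 against adult control. In stroke, 2 were called lower and none higher against adult control, and 5 lower and none higher against P4. The other 4 lists (inhibitory neurons, endothelial, mural and ependymal cells) took at most 0.0287% in any library. Rn45s, the entry of the ribosomal RNA precursor, took 0.0964 to 2.08%, 2.11 to 2.44%, 0.304 to 2.72% and 0.00984 to 0.349% over the groups. Between P4 and adult control all 10 oligodendrocyte markers were called lower (median log2 fold change -8.66), as were 8 of 9 microglia, 8 of 8 precursor and 5 of 8 astrocyte markers, and 5 of 10 pan-neuronal markers were higher (1.58). Their part in the results below was not tested, and in such bulk libraries fewer cells of a type cannot be told from less RNA per cell. Stroke and P4 libraries carry other numbers (4 to 6) than adult control and siRNA-labelled ones (1 to 3), so a batch that follows the numbers cannot be told apart from the group in 3 comparisons: stroke or P4 with adult control, and the siRNA-labelled group with stroke.

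Between genes, levels were compared as CPM per kb of the longest coding transcript. Neo1, the netrin and RGM receptor neogenin, ranked first of the 41 in every group, at 90.5 ± 21.4 CPM per kb in adult control, 140 ± 12.3 after stroke, 103 ± 7.17 with the siRNA label and 159 ± 21.2 in P4. In adult control it was followed by Efnb3, a transmembrane ephrin, at 60.3 ± 40.4, the netrin receptor Unc5c at 29.9 ± 12.9, and Epha4, a receptor that binds ephrins of both classes, at 19.1 ± 7.72. Library ranges of these neighbours overlapped. Of the other families, the leading genes in adult control were Efna5 at 14.4 ± 10.5 CPM per kb among ephrin-As, Robo1 at 11.9 ± 7.43, Ephb1 at 11.7 ± 9.05, Ntn1 at 4.56 ± 6.13, Slit3 at 4.07 ± 2.93 and Ntng2 at 3.37 ± 3.26. Ntng2 was hardly above Ntng1, at 3.32 ± 4.36. The leading slit and netrin thus had lower mean levels per kb than the leading EphA, EphB, Robo and Unc5 receptors. In P4 the order changed: after Neo1 came Epha4 at 81.2 ± 4.63, the slit receptor Robo2 at 77.5 ± 6.63 and Efnb2 at 52.3 ± 4.08 CPM per kb, which had ranked 4, 12 and 11 in adult control, while Efnb3 moved from rank 2 to 12 and Unc5b from 5 to 31. At the low end of adult control stood Epha2, Ntn5, Robo4, the Robo of blood vessels, and Ntn3, at 0.121, 0.156, 0.175 and 0.21 CPM per kb.

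Among the 14 Eph receptors, 5 were called higher in P4 than in adult control and none passed the test in the other direction. Of all 41 genes, 10 were called higher and 3 lower in P4, against 6.31% called higher and 10.4% called lower of all 17909 genes (16.7% in either direction). The median log2 fold change was 0.899 over the 41 genes and -0.161 over all genes. By kind, 5 of 14 Eph receptors were higher, 4 of the 10 Robo, Unc5, Dcc and Neo1 receptors were higher and 1 lower, 1 of 8 ephrins was higher and 1 lower, and of the 9 slits, netrins and netrin-Gs none was higher and 1 lower. The P4 and adult libraries did not overlap in CPM for 14 genes higher and 3 lower in P4, where 16.1 and 16% of all genes did so. Between the same libraries the oligodendrocyte markers went from 3.67 to 9.16% of counts in adult control to 0.0104 to 0.0276% in P4 and the pan-neuronal ones from 0.205 to 0.631% to 0.595 to 0.924%, and what part this has in the 10 higher and 3 lower genes was not tested.

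**Figure D2:**
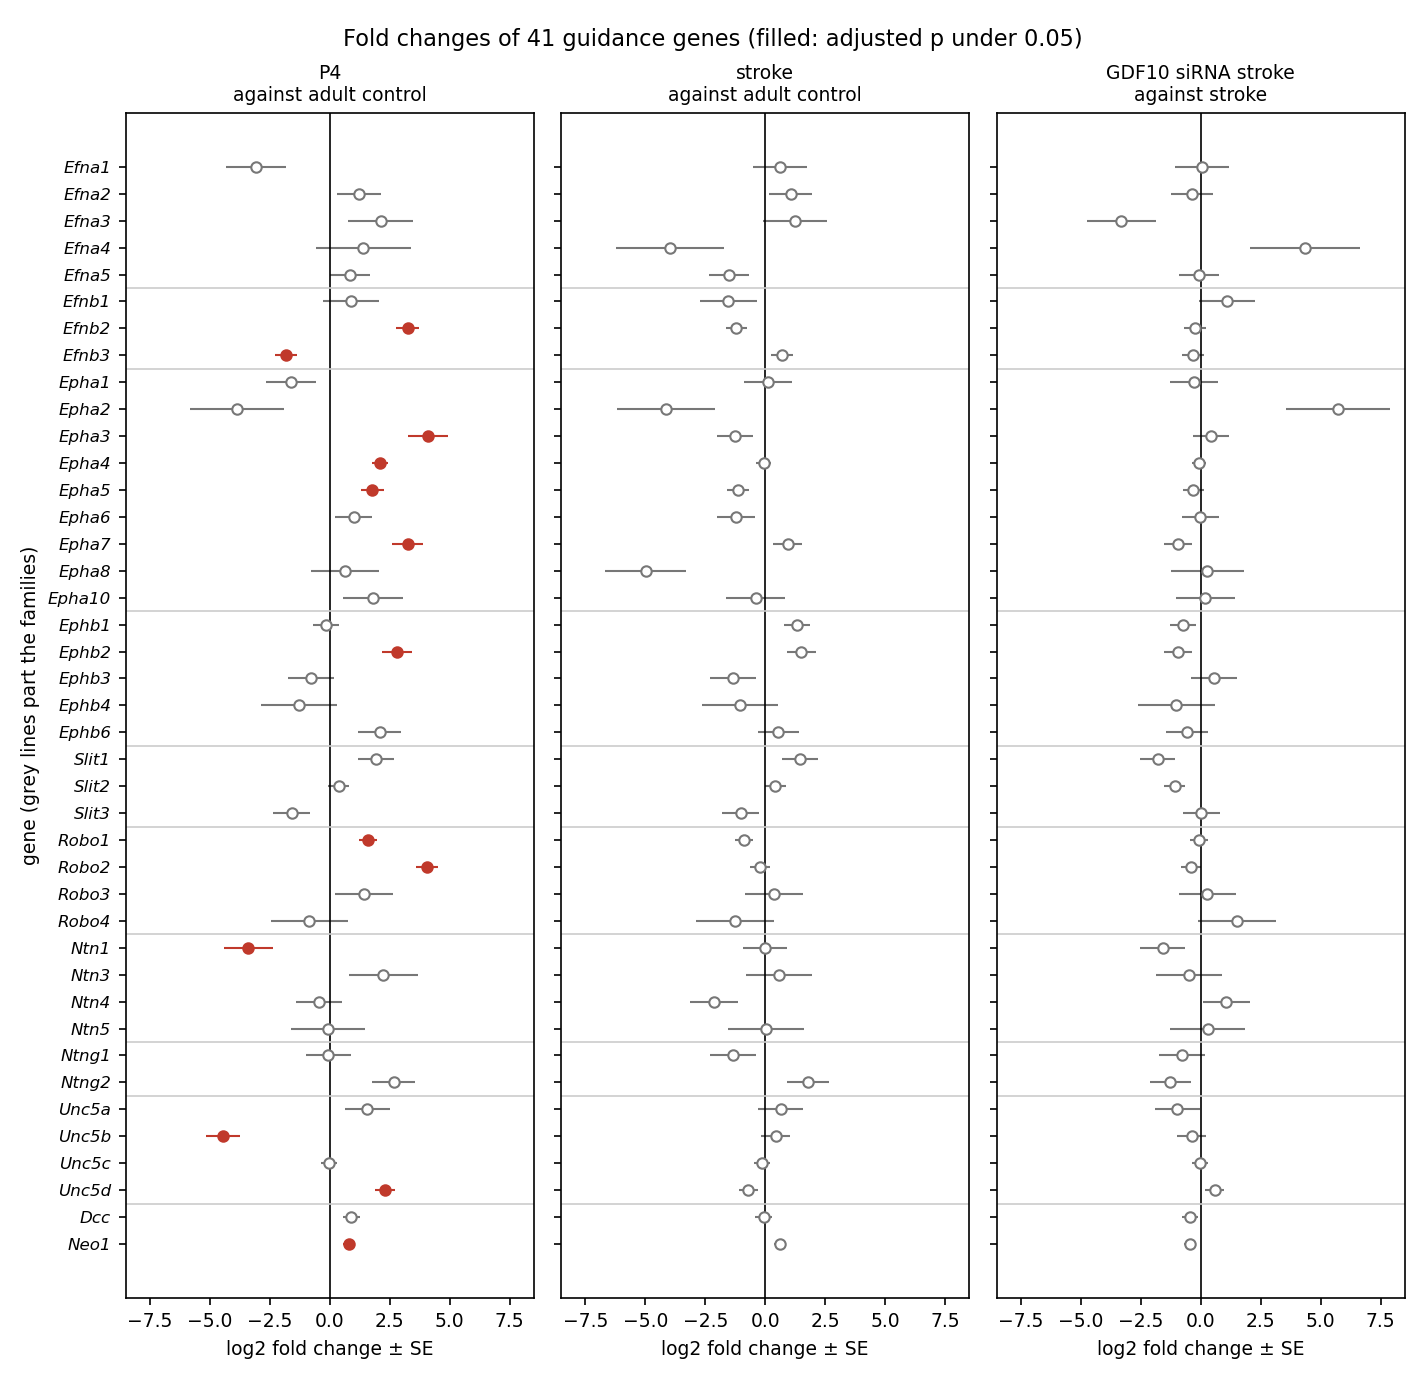
Log2 fold changes of the 41 genes (rows, by family), as points with SE bars, with filled points for an adjusted p under 0.05. The panels are P4 against adult control, stroke against adult control, and siRNA-labelled stroke against stroke. Filled points appear only in the panel of P4 against adult control, where there are 13.

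Epha3, a receptor of ephrin-As, gave 3.81, 1.09 and 9.24 CPM in the 3 adult control libraries and 97.8, 70.8 and 68.8 in P4. The lowest P4 library stood well above the highest adult one (log2 fold change 4.10, SE 0.82, adjusted p = 0.00286), and without adult control 3 the log2 fold change was 5.03 (adjusted p = 0.0006). Epha7, which marks cortical areas and layers in development, had 36.1, 17 and 35.6 CPM in adult control and 233, 199.7 and 409.7 in P4, again without overlap (log2 fold change 3.25, SE 0.64, adjusted p = 0.00242). Epha4 was already abundant in adult control, at 176, 81.5 and 105 CPM, and stood at 530.3, 479.9 and 531 CPM in P4 (log2 fold change 2.09, SE 0.32, adjusted p = 0.000351). Its 3 P4 libraries were close to each other, and the groups did not overlap. Ephb2, an ephrin-B receptor with roles in commissures and in synapse formation, had 2.18, 9.94 and 7.87 CPM in adult control and 60.5, 55.9 and 22.8 in P4 (log2 fold change 2.80, SE 0.62, adjusted p = 0.00591). P4 library 6 was the lowest of its group and still above every adult library. Epha5, at 41.9, 41.7 and 139.9 CPM in adult control, rose to 223, 215 and 329 in P4 (log2 fold change 1.78, SE 0.47, adjusted p = 0.0158). Adult control 3 stood apart there, and without it the log2 fold change was 2.62 (adjusted p = 0.000189), while without adult control 1 the call was lost (1.51, adjusted p = 0.0641).

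The other 9 Eph receptors were not called. Epha6, at 14.2 ± 15.7 CPM in adult control and 28.4 ± 10.8 in P4, Ephb6, a receptor without kinase activity, at 8.6 ± 7.7 and 36.8 ± 25, and Epha8, at 5.12 ± 7.91 and 7.84 ± 4.72, had overlapping libraries. Ephb1 stood at 54.6 ± 42.2 and 49.2 ± 12.7 CPM (log2 fold change -0.15, SE 0.54, adjusted p = 0.893). The remaining 5, Epha1, Epha2, Epha10, Ephb3 and Ephb4, had means under 6 CPM in both groups, with log2 fold changes from -3.852 to 1.802.

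Of the slit receptors, Robo2 gave the smallest p of the 41 genes. Its levels were 62.2, 21.4 and 36.7 CPM in adult control and 636, 732 and 631 in P4, or 40.1 ± 20.6 against 666 ± 57 (log2 fold change 4.05, SE 0.47, adjusted p = 2.92e-05). Robo1 had 52.6, 63 and 155 CPM in adult control and 285, 294 and 239 in P4 (log2 fold change 1.60, SE 0.39, adjusted p = 0.0102). Adult control 3 was its highest adult library and below the lowest P4 one, and without it the log2 fold change was 2.24 (adjusted p = 0.000163). Robo3, known from commissural axons, and Robo4 were low, at 1.44 ± 1.06 and 0.867 ± 0.846 CPM in adult control and 3.93 ± 2.48 and 0.497 ± 0.56 in P4, and were not called.

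The 4 Unc5 receptors differed in direction. Unc5d, a receptor that also binds FLRT adhesion proteins and acts in migrating cortical neurons, had 49.8, 28.9 and 39.6 CPM in adult control and 140.1, 139.7 and 303 in P4 (log2 fold change 2.30, SE 0.41, adjusted p = 0.00119). Unc5b, a netrin receptor also known from blood vessels, went the other way, from 77.5, 230.0 and 29.4 CPM in adult control to 5.07, 7.71 and 2.54 in P4 (log2 fold change -4.45, SE 0.70, adjusted p = 0.00042). Its adult libraries spread widely, and the lowest of them was still above all 3 P4 libraries. Without adult control 2 the log2 fold change was -3.37 (adjusted p = 0.000655). Unc5c stood at 289 ± 124 and 282 ± 71.7 CPM (log2 fold change -0.04, SE 0.33, adjusted p = 0.961), and Unc5a at 9.96 ± 9.28 and 29.6 ± 22.1 with overlapping libraries. Neo1 had 673, 824 and 507 CPM in adult control and 1119, 1349 and 1049 in P4 (log2 fold change 0.81, SE 0.26, adjusted p = 0.0423). This call was lost without adult control 1 or 3 or P4 4 or 5, with adjusted p between 0.0987 and 0.173. Dcc, with 50.7, 63 and 84.9 and 103, 123 and 144 CPM, did not overlap between the groups and missed the threshold (log2 fold change 0.90, SE 0.35, adjusted p = 0.0965).

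Of the 8 ephrins, 2 of the ephrin-Bs were called, in opposite directions. Efnb2 had 32.2, 10.24 and 37.1 CPM in adult control and 271, 232 and 249.5 in P4, so that every P4 library exceeded every adult one (log2 fold change 3.25, SE 0.47, adjusted p = 0.000234). Efnb3 had 184, 324 and 67.4 CPM in adult control and 56.1, 72 and 33.8 in P4 (log2 fold change -1.83, SE 0.47, adjusted p = 0.0141). The groups overlapped, since adult control 3 lay below P4 5, and the call was lost without adult control 2 (log2 fold change -1.21, adjusted p = 0.0691) or P4 6 (-1.57, adjusted p = 0.0555). Efna5, a repellent of cortical and retinal axons, was at 58 ± 42.4 CPM in adult control and 104 ± 38.1 in P4 (log2 fold change 0.84, SE 0.82, adjusted p = 0.55). Its adult libraries, at 55.2, 17.1 and 102 CPM, spread more than the groups differed. Efna1, Efna2, Efna3, Efna4 and Efnb1 had means under 6 CPM in both groups and were not called.

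Among the secreted ligands, Ntn1, which encodes netrin-1, was lower in P4. It had 8.25, 68.3 and 3.88 CPM in adult control and 3.01, 3.81 and 0.824 in P4 (log2 fold change -3.38, SE 1.01, adjusted p = 0.0321). The adult mean rests on adult control 2, without which the log2 fold change was -1.23 (adjusted p = 0.338). The call was also lost without any 1 of the P4 libraries, with adjusted p between 0.0662 and 0.0989. Slit1, Slit2 and Slit3 stood at 4.76 ± 0.697, 20.1 ± 7.34 and 21.3 ± 15.3 CPM in adult control and at 18.3 ± 12.3, 26.1 ± 5.41 and 7.12 ± 4.14 in P4, with overlapping libraries in each case. Ntng2 came close to the threshold, from 4.44, 13.2 and 1.37 CPM in adult control to 56.5, 60.9 and 5.01 in P4 (log2 fold change 2.67, SE 0.91, adjusted p = 0.0575). Its P4 6 library lay within the adult range. Ntng1, at 18.6 ± 24.4 and 17.8 ± 8.35 CPM, and Ntn3, Ntn4 and Ntn5, with means from 0.274 to 5.12 CPM in both groups, were not called.

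**Figure D3:**
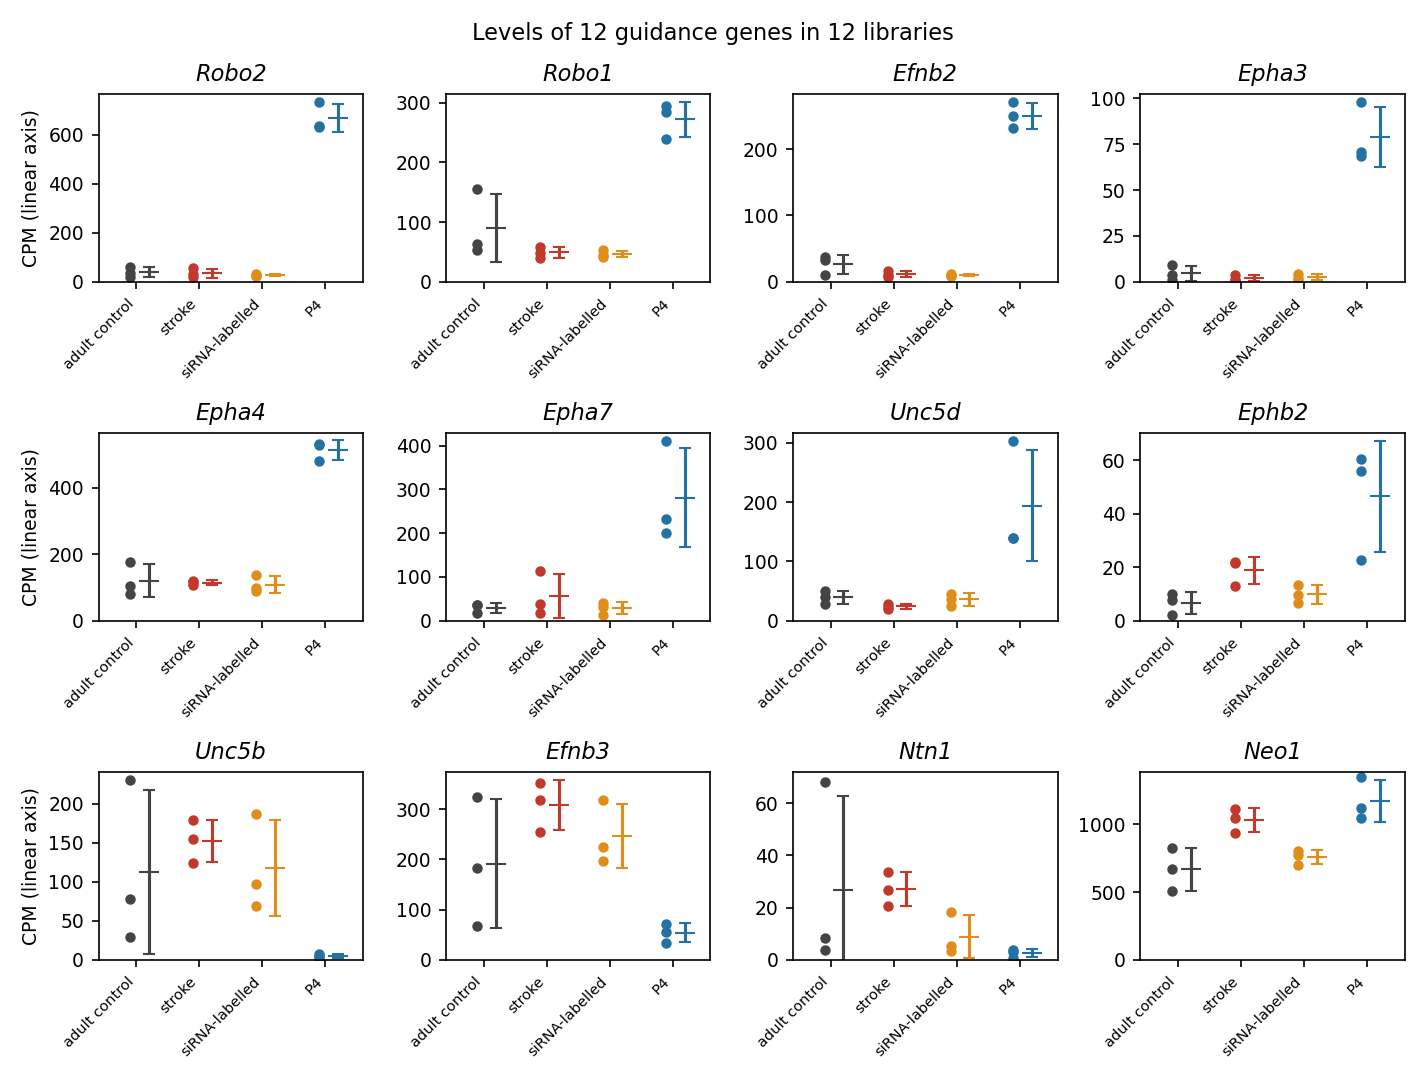
Levels of 12 guidance genes in CPM (linear axis from 0, own scale per panel) in each library of the 4 groups. There is 1 point a library, and a bar with whiskers for the group mean ± SD. For Robo2 the P4 points lie between 631 and 732 CPM and all 9 adult points between 17.8 and 62.2, while for Unc5b the P4 points lie between 2.54 and 7.71 and the adult ones between 29.4 and 230.

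In the genome (GRCm38, the mm10 build, GENCODE M21), Robo1 and Robo2 lie on chromosome 16, at 72308306 to 73046095 on the plus strand and 73891839 to 74411825 on the minus strand, and Epha3 lies on the same chromosome, at 63543534 to 63864175. Epha4 lies at 77367185 to 77515088 on chromosome 1, Epha7 at 28813131 to 28967499 on chromosome 4, Efnb2 at 8617434 to 8661242 on chromosome 8, Unc5d at 28646717 to 29219636 on chromosome 8 and Unc5b at 60762593 to 60831581 on chromosome 10. The 250 bases upstream of the RefSeq start (GRCm38.p6) are shown for 3 genes that were higher in P4, Epha3, Epha4 and Efnb2, and for Unc5b, which was lower. They are read 5′ to 3′ on the gene's strand, minus for all 4, and capitals mark the GC box GGGCGG or, on the other strand, CCGCCC.
Epha3 (chr16:63864176-63864425): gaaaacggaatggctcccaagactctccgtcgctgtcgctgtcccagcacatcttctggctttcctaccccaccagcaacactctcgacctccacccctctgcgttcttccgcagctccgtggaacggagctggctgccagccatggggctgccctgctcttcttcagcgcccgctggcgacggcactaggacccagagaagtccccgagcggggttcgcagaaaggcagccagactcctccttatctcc
Epha4 (chr1:77515089-77515338): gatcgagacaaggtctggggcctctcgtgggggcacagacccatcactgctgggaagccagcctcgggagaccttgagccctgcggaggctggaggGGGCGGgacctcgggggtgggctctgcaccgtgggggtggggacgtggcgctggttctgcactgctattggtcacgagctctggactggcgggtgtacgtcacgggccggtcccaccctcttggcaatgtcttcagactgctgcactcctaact
Efnb2 (chr8:8661243-8661492): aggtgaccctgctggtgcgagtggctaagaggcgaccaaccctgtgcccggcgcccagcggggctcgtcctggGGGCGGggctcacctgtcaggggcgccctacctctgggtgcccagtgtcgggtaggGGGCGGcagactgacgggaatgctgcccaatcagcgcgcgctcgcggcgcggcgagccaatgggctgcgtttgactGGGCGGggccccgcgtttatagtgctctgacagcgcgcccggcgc
Unc5b (chr10:60831582-60831831): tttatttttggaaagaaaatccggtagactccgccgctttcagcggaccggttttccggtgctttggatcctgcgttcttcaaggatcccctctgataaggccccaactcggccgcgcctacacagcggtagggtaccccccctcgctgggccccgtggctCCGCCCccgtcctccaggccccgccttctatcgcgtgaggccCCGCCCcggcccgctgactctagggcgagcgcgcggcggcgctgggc
Epha3 held 0 GC boxes in this window, Epha4 held 1, Efnb2 3 and Unc5b 2, so the number of boxes did not separate the genes higher in P4 from the one lower. Of the 36 genes with a promoter entry, 25 (69.4%) held a GC box on either strand, as did 32.7% of all 32851 promoter windows of this length. Their median GC content was 65.2%, against 52.4% in all windows. The CCAAT box (CCAAT or ATTGG) was found in 38.9% of the 36 and 33.8% of all windows, the TATA box (TATAAA or TTTATA) in 5.56 and 12.4%, and the Sox motif (ACAAAG or CTTTGT) in 5.56 and 16.5%. None of these motifs holds another as a part, and a match is a stretch of letters, not a measured binding site. For each of the 36 genes the 1 window nearest the annotated gene start was taken. The windows of all promoters were not reduced in this way, so these shares and GC contents compare sets chosen differently. Ntn1, Dcc, Unc5d, Slit1 and Efnb3 were not among the entries.

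In stroke, no guidance gene was called against adult control. Of the 41 genes 0 were called in either direction, against 0.687% of all genes, and 8 had an unadjusted p under 0.05, as did 2844 of 17909 genes. DESeq2 called 2 of the 41 (Epha8 and Ntn4) and limma voom with library weights 8. How many of all genes these 2 tests called is not given here. The median log2 fold change was -0.0709 over the 41 genes and -0.0804 over all genes. Libraries did not overlap for 4 genes higher in stroke (Ephb1, Ephb2, Neo1 and Slit1) and 4 lower (Epha5, Epha8, Ephb3 and Unc5d), where 11 and 9% of all genes did not overlap. Ephb2 had 2.18, 9.94 and 7.87 CPM in adult control and 21.6, 22.1 and 13.1 in stroke (log2 fold change 1.51, SE 0.60, adjusted p = 0.246). Its relative Ephb1 had 55.3, 96.4 and 12 and 142, 137 and 132 CPM, the stroke libraries being much closer to each other than the adult ones (log2 fold change 1.32, SE 0.55, adjusted p = 0.265). Efnb2, a ligand of both, had 32.2, 10.24 and 37.1 CPM in adult control and 9.98, 16.9 and 7.55 in stroke (log2 fold change -1.20, SE 0.44, adjusted p = 0.219). It overlapped through adult control 2, without which its log2 fold change was -1.58 and passed (adjusted p = 0.0387). Epha5 had 32.7, 29.1 and 40.1 CPM in stroke, all below its adult libraries (log2 fold change -1.13, SE 0.46, adjusted p = 0.255). The size of this difference rests on adult control 3, without which it was -0.30 (adjusted p = 0.817). Epha8, a receptor of ephrin-As, had 0.515, 0.596 and 14.3 CPM in adult control and 0, 0.256 and 0.217 in stroke (log2 fold change -4.98, SE 1.70, adjusted p = 0.19), and its adult mean rests on library 3, without which the log2 fold change was -1.81 (adjusted p = 0.682). In the authors' deposited table, Epha8 was the only one of the 41 past a false discovery rate of 0.05 for stroke against adult control, with a log2 fold change of -4.95 and a rate of 0.044.

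Between siRNA-labelled stroke and stroke, again none of the 41 genes was called, against 0.00558% of all genes (1 gene). An unadjusted p under 0.05 was found for 4 of the 41 and for 1316 of all genes. DESeq2 called 0 of the 41 and 195 of 22470 genes. With limma voom and library weights, 1 of the 41 (Ntn1) and 841 of 17909 genes were called. The median log2 fold change was -0.267 over the 41 genes and 0.0355 over all genes. Of the 41 values 27 were negative, and the share of all genes is not given here. All genes differed by the GC content of their transcripts. At 50% GC or more the median was -0.267 over 27 of the 41 and -0.245 over all such genes. Under 50% it was -0.192 over 14 of the 41 and 0.245 over all such genes. The part of GC in the lower median of the 41 was not tested. Libraries did not overlap for 1 gene higher (Epha2) and 5 lower (Efna3, Ephb1, Neo1, Ntn1 and Slit2) in the siRNA-labelled group, where 7.77 and 8.11% of all genes did so. Microglia markers took 0.176 to 0.348% of counts in these siRNA-labelled libraries and 0.0345 to 0.115% in stroke, with 0 of 9 called (median log2 fold change 1.75), and their part here was not tested. Slit2, a repellent ligand of Robo1 and Robo2, had 25.4, 25.2 and 30.0 CPM in stroke and lower values, 12.6, 11 and 14.4 CPM, with the siRNA label (log2 fold change -1.08, SE 0.44, adjusted p = 0.636). Slit1 had 6.8, 19.7 and 12.6 and 2.23, 2.08 and 6.87 CPM, which overlapped only narrowly (log2 fold change -1.80, SE 0.74, adjusted p = 0.636). Slit3 stood at 10.4 ± 8.11 and 10.7 ± 4.45 CPM. Efna3 was low, at 3.69, 0.544 and 2.12 and 0.0619, 0.174 and 0.375 CPM (log2 fold change -3.31, SE 1.44, adjusted p = 0.657). Epha2 had 110 counts in the siRNA-labelled group and 2 in stroke, a ratio of 63.5 after scaling (95% exact binomial interval 17.2 to 531, for counting error only), at 2.17, 0.116 and 2.11 CPM in the siRNA-labelled libraries, the second of them close to stroke. Its adjusted p was 0.618.

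Set against adult control, siRNA-labelled stroke likewise had 0 of 41 genes called, against 0.123% of all genes (0.0893% higher and 0.0335% lower). Of the 41, 5 had an unadjusted p under 0.05, as did 1485 of all genes, and the median log2 fold change was -0.204 against -0.0192. DESeq2 called 1 of the 41 (Epha8) and 381 of 22470 genes. With limma voom and library weights, 0 of the 41 and 426 of 17909 genes were called. No gene was higher in all siRNA-labelled libraries than in all adult controls, and 4 were lower (Epha5, Epha8, Ephb4 and Robo1), where 6.35 and 4.47% of all genes did so. Efnb2 had 8.66, 9.26 and 11.2 CPM in the siRNA-labelled libraries (log2 fold change -1.45, SE 0.45, adjusted p = 0.356), and Epha5 had 31.1, 17.8 and 33.5 (log2 fold change -1.44, SE 0.46, adjusted p = 0.385). Robo1 had 52.6, 42.1 and 45.5 CPM, the first of them barely below the lowest adult library (log2 fold change -0.94, SE 0.38, adjusted p = 0.525). Epha8 had 0, 0.0579 and 0.462 CPM (log2 fold change -4.72, SE 1.67, adjusted p = 0.462). This comparison and that of stroke use the same 3 adult libraries, so like values in both are not independent. Without adult control 3 the log2 fold changes were -0.61 for Epha5 (adjusted p = 0.852), -0.31 for Robo1 (adjusted p = 0.93) and -1.53 for Epha8 (adjusted p = 0.917).

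Stroke and P4 differed in 12 of the 41 genes, 3 higher and 9 lower in stroke, against 10.8 and 7.9% of all genes (18.7% in either direction). The median log2 fold change was -0.97 over the 41 genes and -0.0356 over all genes. Libraries did not overlap for 5 genes higher and 16 lower in stroke, where 22.6 and 21.7% of all genes did so. The P4 libraries are the same as in the comparison with adult control, so the 2 comparisons are not independent. All 10 oligodendrocyte, 8 precursor and 9 microglia markers were called higher in stroke than in P4 and 6 of 10 pan-neuronal markers lower, and Rn45s took 2.11 to 2.44% of stroke counts against 0.00984 to 0.349% in P4. What part these have in the 12 genes was not tested. Of the receptors, Robo2 was at 30.6, 54.4 and 17.8 CPM in stroke (log2 fold change -4.28, SE 0.47, adjusted p = 1.48e-05), Robo1 at 58.7, 48.6 and 40.7 (log2 fold change -2.47, SE 0.40, adjusted p = 0.000421) and Epha4 at 107, 118 and 119.6 (log2 fold change -2.16, SE 0.32, adjusted p = 0.000209). Each of these stroke values lay below every P4 library. Epha3, at 1.24, 3.78 and 0.76 CPM in stroke, was lower than in P4 (log2 fold change -5.34, SE 0.87, adjusted p = 0.000448), with -6.29 without stroke 5 (adjusted p = 0.000728). Epha5 was lower in stroke as well (log2 fold change -2.91, SE 0.48, adjusted p = 0.000543), as was Unc5d, at 23.8, 28.5 and 20.2 CPM (log2 fold change -3.01, SE 0.42, adjusted p = 0.000123). Epha7, at 37.4, 114 and 18 CPM in stroke, was lower with a wide spread (log2 fold change -2.32, SE 0.61, adjusted p = 0.0144). Without P4 6, stroke 4 or stroke 6 its adjusted p was 0.0548, 0.0583 and 0.0574, and without stroke 5, its highest stroke library, the log2 fold change was -3.34 (adjusted p = 0.0019). Epha8 was lower (log2 fold change -5.61, SE 1.74, adjusted p = 0.035) and lost the call without P4 4, P4 5 or any 1 stroke library, with adjusted p from 0.0786 to 0.103. Of the ligands, Efnb2 was lower (log2 fold change -4.45, SE 0.50, adjusted p = 1.8e-05), and Efnb3, at 353, 319 and 255 CPM in stroke, was higher without overlap (log2 fold change 2.52, SE 0.48, adjusted p = 0.00156). Unc5b, at 179, 155 and 124 CPM in stroke, was higher too (log2 fold change 4.89, SE 0.71, adjusted p = 0.000172). Ntn1, at 20.6, 26.7 and 33.6 CPM in stroke, was higher than in P4 (log2 fold change 3.38, SE 1.01, adjusted p = 0.0288), and the call was lost without any 1 of the 6 libraries, with adjusted p from 0.0569 to 0.0992. Ephb2 and Neo1, called between P4 and adult control, were not called between stroke and P4, with log2 fold changes of -1.29 (adjusted p = 0.156) and -0.18 (adjusted p = 0.695).

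Genes that act with these ligands and receptors were read as a list of 56, of which 55 were in the table and tested. The list holds binding partners, adaptors and cytoskeletal effectors. In P4 against adult control 14 of 55 were higher and 3 lower, where 6.31% of all genes were higher and 10.4% lower, and the median log2 fold change was 0.491 over the list and -0.161 over all genes. The 3 with the smallest p among the higher ones were Trim67, a ubiquitin ligase that binds Dcc (336 ± 138 CPM in P4 and 10.24 ± 5.94 in adult control, log2 fold change 5.05, SE 0.53, adjusted p = 1.13e-05), Draxin, a secreted netrin and Dcc binder (51.4 ± 22.2 and 0.351 ± 0.135, 7.22, SE 0.93, adjusted p = 7.34e-05), and Ablim1, an actin-binding protein (338 ± 108 and 36.4 ± 17, 3.22, SE 0.47, adjusted p = 0.000217). Those lower were Chn2, a Rac GTPase-activating protein (log2 fold change -1.92, adjusted p = 0.000395), the Rac effector kinase Pak1 (-1.28, adjusted p = 0.00419) and the GTPase Rhoa (-1.01, adjusted p = 0.0406). In stroke against adult control 1 of 55 was higher and none lower: Fyn, a Src-family kinase that acts downstream of Dcc and Ephs and also in myelinating oligodendrocytes, stood at 919 ± 353 CPM in stroke and 171 ± 42.9 in adult control (log2 fold change 2.42, SE 0.34, adjusted p = 0.0046). The oligodendrocyte precursor markers took 0.334 to 0.458% of counts in those stroke libraries and 0.0788 to 0.368% in the adult controls. Of these 8 markers, 1 was called higher in stroke and none lower. Counts of Pdgfra went down from 57589 to 26374 and those of Cspg4 from 10139 to 5110. Those of Olig1, Olig2, Sox10, Gpr17, Bmp4 and Neu4 went up. The part of precursor cells in the Fyn result was not tested. None was called in either comparison of the siRNA-labelled group, where the median log2 fold changes were -0.105 against stroke and -0.068 against adult control. In stroke against P4 7 of 55 were higher, led by Chn2 (log2 fold change 2.44), Rhoa (2.22) and Fyn (1.93), and 16 lower, led by Ablim1 (-4.47), Trim67 (-4.23) and Nell2, a Robo3 ligand (-2.46). Of all genes 10.8% were higher and 7.9% lower there, and the median was -0.509 over the list and -0.0356 over all genes.

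Libraries of 1 group also differed with the GC content of the transcripts. Among the 41 genes, 27 have transcripts of at least 50% GC, and 14 have less. In adult control 2 against adult control 3, the median difference in log2(CPM + 0.5) was 1.76 over the 27 GC-rich genes, positive in 22, and -0.996 over the 14 others, positive in 1. In P4 5 against P4 6 it was 1.28 (positive in 23 of 27) and -0.052 (positive in 7 of 14). Between siRNA-labelled 3 and 2 the medians were 0.693 and 0.248, and between stroke 4 and 6 they were 0 and 0.158. The genes called between P4 and adult control were also counted by GC content. Of the 14 GC-poor genes 8 were higher and none lower, and of the 27 GC-rich genes 2 were higher and 3 lower. Over all genes, 7.58% of GC-poor genes were called higher and 11.6% lower, and 4.95 and 9.17% of GC-rich ones. With a correction for GC in each library, a step added after seeing the data, 13 of the 41 genes were higher and 3 lower in P4, including all 13 called without it. Of all genes, 3644 of 17725 were called with the correction. The log2 fold change of Robo2 was then 4.48 (adjusted p = 3.53e-06), Epha3 4.72 (0.000286) and Unc5b -4.41 (1.44e-06). The 3 genes added were Dcc (1.09, adjusted p = 0.0363), Ephb6 (2.05, 0.0319) and Ntng2 (2.65, 0.0109). Leaving out adult control 3 and P4 6 together gave 19 called genes of the 41, the 13 among them, and 3465 of 18644 over all genes.

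**Figure D4:**
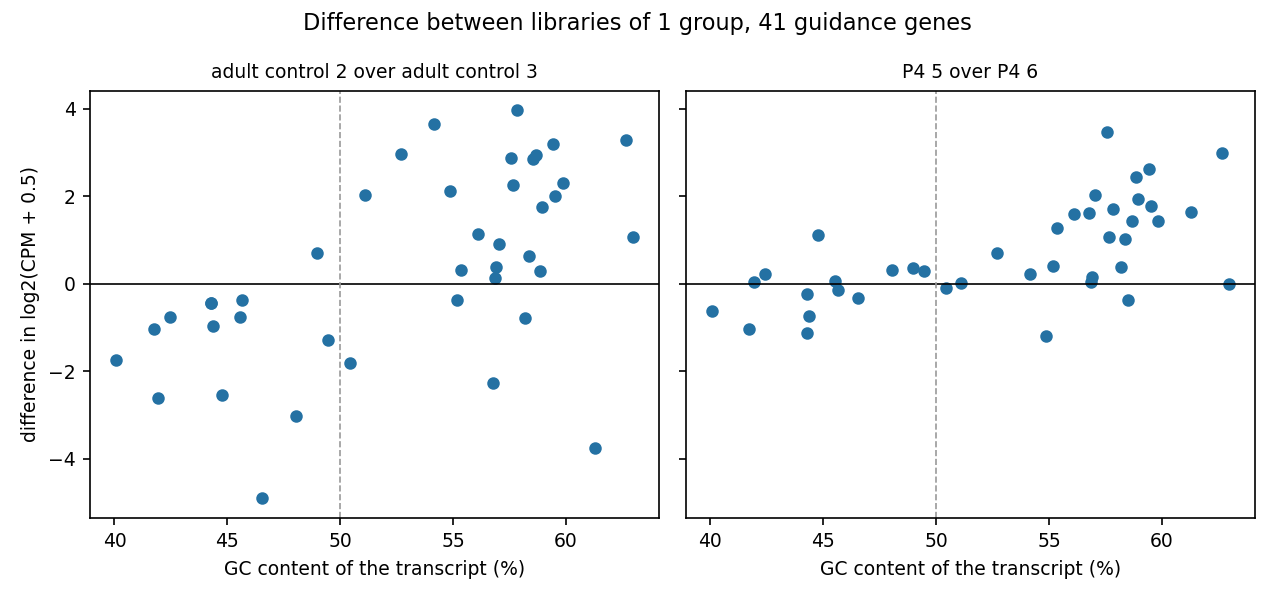
Difference in log2(CPM + 0.5) between 2 libraries of the same group (vertical axis) against the GC content of the transcript in percent (horizontal axis). There is 1 point for each of the 41 genes, with 1 panel for adult control and 1 for P4. In adult control 2 against 3 the points climb with GC (Pearson's r over the 41 genes, which are not independent replicates, 0.555). In P4 5 against 6 they do likewise (0.644). In the siRNA-labelled and stroke pairs, which are not drawn, r was 0.21 and -0.18.

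In the authors' deposited table, which gives log2 fold changes and false discovery rates of the authors' own, 10 of the 41 genes were positive and 4 negative for P4 against adult control at a rate under 0.05, against 15.4% of all genes. For P4 against stroke they were 11 and 4 (16.6%). The siRNA-labelled group against P4, not tested here, had 3 positive and 15 negative there (17%). The authors' comparisons name this group only as stroke with GDF10, whereas the sample labels name GDF10 siRNA. Which treatment was given is therefore not settled here. No gene of the 41 passed between the siRNA-labelled group and stroke or adult control, where 0.159 and 0.839% of all genes did. Robo2 and Unc5b had log2 fold changes of 4.07 and -4.44 in the authors' deposited table for P4 against adult control.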

How the data were processed

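Per the labels' protocols, RNA from a Microprep kit went through the amplifying Ovation RNA-seq System v2 before sequencing. CASAVA 1.8.2, edgeR and the build mm10 are named in the submitters' processing notes. Which aligner, counter, annotation or strand option was used is not given in the sources used here, so the split of reads between similar Eph genes is uncertain. The deposited table gives raw counts per gene for all 12 libraries, which were analysed here. It also gives the authors' log2 fold changes and p-values for pairs of groups, and 30 further columns of values per library that were not used.

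Genes were filtered with filterByExpr, scaled with TMM and fitted with 1 mean per group by the robust quasi-likelihood method of edgeR 4.0.16 in R 4.3.3, with Benjamini-Hochberg adjustment. The members, the lists of partner genes and markers, and the tests were chosen with earlier results of these data known. The text names called genes (at most 10 per comparison with full values), else the 4 with the smallest p, the leading gene per kb of each family, and up to 3 partner genes per direction. Other genes are given by levels or ranges. Ephb1 in stroke, the Slit3 values in the siRNA comparison, Dcc and Ntng2 were named after their values were seen. Alternatives were DESeq2 1.42.0, DESeq2's size factors, no filter, only the 6 libraries compared, limma 3.58.1 voom with library weights, each library left out and, where groups share replicate numbers, a block. Positions, transcript lengths and GC content come from GENCODE M21 (GRCm38) and promoters from RefSeq (GRCm38.p6), matched by symbol for 41 and 36 of the 41 genes. A fit without 1 library assumes that the libraries left vary like the others.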

Additional observations from a re-analysis of the deposited data

How the results depend on the processing

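The number of guidance genes called depended on the test. limma voom with library weights called 28 in P4 against adult control, where it called 9390 of 17909 genes, and 28 in stroke against P4. It called 8 in stroke against adult control (5 higher, 3 lower). In the siRNA-labelled group against stroke it called 1 (Ntn1), and 841 of 17909 genes. DESeq2's Wald test called 19 in stroke against P4 and 2 (Epha8 and Ntn4) in stroke against adult control. In the siRNA-labelled group against adult control it called 1 (Epha8), and 381 of 22470 genes. For stroke against adult control and against P4, the share of all genes under these 2 tests is not given here. With only the 6 libraries of both groups, 8 were called in P4 against adult control, where 1574 of 16198 genes were. Leaving out 1 library gave 11 to 15 in P4 against adult control, where 1849 to 3096 of all genes were called, and 9 to 10 in stroke against P4. It gave 0 to 1 in stroke against adult control (1, Efnb2, without adult control 2), and 0 in both siRNA comparisons. Leaving out adult control 3 and P4 6 together gave 19 in stroke against P4, and the replicate block with a GC correction gave 20 there; both were added after seeing the data. The cause of these differences was not tested. With the replicate number as a block, 17 were called in stroke against P4 and 0 in the siRNA-labelled group against adult control. Whether the numbers pair the libraries was not settled, as 3 libraries a group give too few correlations to decide it. Those of same-numbered deviations were 0.16, 0.0136 and 0.153 in stroke against P4. In the siRNA-labelled group against adult control they were 0.0642, -0.191 and -0.336. Those of differently numbered libraries ran from -0.175 to 0.151 in the former comparison and from -0.317 to 0.481 in the latter. Robo2, Efnb2, Epha3, Epha4, Epha7, Ephb2, Unc5b and Unc5d were called in all 13 alternatives of P4 against adult control, and Robo1 in all but the fit of 6 libraries (adjusted p = 0.0699). The called genes, and the 4 of smallest p where none was called, kept their direction in the alternatives run. Other genes with values in the text did not all do so: log2 fold changes ran from -0.62 to 0.55 for Ephb1 and -0.99 to 4.38 for Epha8 in P4 against adult control, and from -0.70 to 0.80 for Slit3 in the siRNA-labelled group against stroke. DESeq2's size factors moved the median of all genes from -0.0804 to -0.185 in stroke against adult control and from -0.0356 to -0.163 in stroke against P4. Few counts stand behind some values: over the 3 stroke libraries Epha2 had 2 counts and Epha8 had 12.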
